A study of Mus musculus with 14 samples.

Results

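The 10 genes described here regulate the epithelial-mesenchymal transition (EMT) or are its usual readouts: the transcription factors Zeb1, Zeb2, Snai1, Snai2, Twist1, Twist2 and Grhl2, the cadherins Cdh1 and Cdh2, and the filament gene Vim. Their rows were found by gene symbol, and all 10 were among the 55416 genes listed for each library. Bulk RNA of lung and of the gastrocnemius (a muscle of the calf) was sequenced in C57BL/6 (C57BL/6NCrlOri) mice. The 14 libraries form 4 groups by title: lung TB (5 libraries), lung CON (3), muscle TB (3) and muscle CON (3). TB is read here as tumour-bearing and CON as control, since the study's design text speaks of a mouse model that carries tumours and looks for targets against muscle wasting. Per the labels' protocols, male mice aged 6 to 8 weeks received 5000000 cells of a line named KrasIKKaL through the trachea. The sources used here do not state what the CON mice received or whether any mouse carried an engineered allele. They also leave unsaid how a lung was sampled and whether each library is a different animal, so the p-values reflect the spread among these libraries only, and that spread may be technical. In such bulk samples, which can hold injected cells and host cells together, fewer cells of a type and less RNA per cell cannot be told apart.

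In EMT, epithelial cells loosen their junctions and take up features of mesenchymal cells such as fibroblasts. Zeb, Snail and Twist factors repress epithelial genes, above all Cdh1, which encodes the junction protein E-cadherin. Grhl2 keeps the epithelial state, activates Cdh1 and holds Zeb1 down. N-cadherin (Cdh2) and vimentin (Vim) are the customary mesenchymal readouts, though fibroblasts, endothelium and leukocytes express Vim in normal tissue as well.

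Total expected counts ran from 47947363 to 61087315 in the lung libraries and from 32476194 to 44169410 in the muscle libraries. Levels below are TPM, abundances per transcript length with the same total in each library. Folds and log2 fold changes come from counts scaled by TMM, edgeR's trimmed mean of log ratios, and so differ from ratios of TPM. A gene was called at an adjusted p below 0.05 in edgeR's quasi-likelihood test, over all genes of that comparison. The tissue labels held on defining markers: the alveolar type 2 gene Sftpc was listed at 0 in all 6 muscle libraries, and the muscle actin Acta1 reached at most 0.42 TPM in any lung library. Other genes of these marker lists were less clean. The muscle gene Ckm reached 19.39 TPM in lung CON and had at least 8494 TPM in muscle. The alveolar type 2 gene Napsa reached 1.19 TPM in muscle TB and had at least 7.80 TPM in lung. Within lung, the makeup of the TB libraries stood far from that of the CON libraries. Summed over each marker list, alveolar type 2 genes had 34.6 to 1301 TPM in lung TB against 38167 to 44349 in lung CON, and endothelial genes had 71.5 to 91.0 TPM against 1393 to 1420. In lung, 59.7% of the 19300 genes tested were called, 30.4% higher and 29.3% lower in TB.

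In lung, Cdh1, Vim and Twist1 rose in TB and Zeb1, Zeb2, Snai1, Twist2 and Cdh2 fell, so 8 of the 10 genes were called, 3 higher and 5 lower. That share stands against the 59.7% called over all genes tested. Snai2 and Grhl2 did not pass the test. For 7 of the 10 genes the TPM of the 5 TB and the 3 CON libraries did not overlap, against 61.5% of all genes tested. RNA of Zeb1, Zeb2, Snai1 and Cdh2 was thus lower and that of Cdh1 higher, while RNA of the mesenchymal readout Vim was higher too. No protein was measured.

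**Figure D1:**
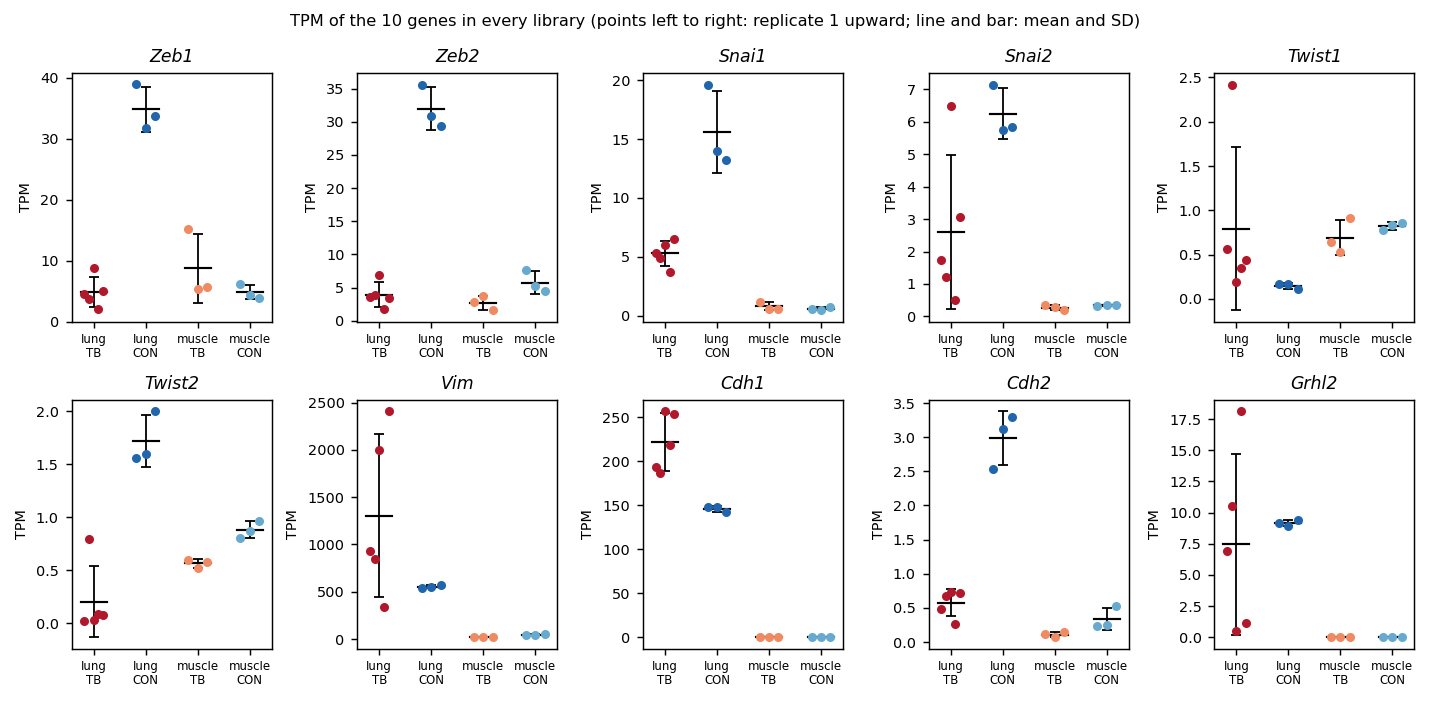
Level of each of the 10 genes in every library, in TPM (vertical axis, a separate linear scale for each gene), by group (horizontal axis). Each point is 1 library, replicate 1 leftmost, and the line and bar are the group's mean and SD (5 lung TB, 3 libraries in each other group). Zeb1, Zeb2, Snai1, Twist2 and Cdh2 lie lower in lung TB than in lung CON without overlap, Cdh1 and Twist1 lie higher without overlap, and Vim and Grhl2 are widely spread in lung TB.

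Zeb1 and Zeb2 encode zinc-finger homeobox repressors. Zeb1 had 4.5, 3.63, 8.77, 2.11 and 5.07 TPM in lung TB, against 38.93, 31.86 and 33.67 TPM in lung CON. All 5 TB libraries lay far under the lowest CON library, and TB 3 was the highest of them. The mean was 4.82 ± 2.48 TPM in TB (SD, n = 5) and 34.8 ± 3.67 TPM in CON (SD, n = 3), a 4.83-fold fall on scaled counts (log2 fold change -2.27, SE 0.41, adjusted p = 0.00129, edgeR). Zeb2 had 3.56, 3.89, 6.89, 1.79 and 3.49 TPM in lung TB, against 35.63, 30.92 and 29.39 TPM in lung CON. As for Zeb1, no TB library reached the CON libraries, TB 3 was the highest of them and TB 4 the lowest. Zeb2 fell 5.75-fold (log2 fold change -2.52, SE 0.41, adjusted p = 0.000723, edgeR). Summed, both genes had 3.90 to 15.7 TPM in lung TB and 62.8 to 74.6 TPM in lung CON, while Zeb1 supplied 48.3% to 59.2% of the sum in TB and 50.7% to 53.4% in CON. Zeb2 is also a gene of leukocytes and both are genes of stroma. The leukocyte markers summed to 90.7 to 564 TPM in TB and 5948 to 6393 TPM in CON, with 5 of 8 called lower, and none of these 8 was at 0 in a TB library. These sums were carried by Lyz2 (55.8 to 500 TPM in TB, 5800 to 6261 TPM in CON). Of the others, Ptprc had 1.33 to 5.33 TPM in TB and 23.40 to 29.15 TPM in CON. Itgam (2.76 to 6.97 TPM in TB, 5.23 to 5.60 TPM in CON) and Cd68 (16.31 to 48.23 TPM in TB, 36.58 to 43.55 TPM in CON) overlapped between the groups. The fibroblast markers summed to 23.9 to 100.01 TPM in TB and 547 to 648 TPM in CON, with 6 of 8 called lower, and the part of these cells in the fall of the Zeb genes was not tested. An antisense gene, Zeb2os, overlaps Zeb2 in GENCODE M21 and had 0.68 to 1.79 TPM in TB and 3.30 to 4.34 TPM in CON. Since the strand option of the counting is not given, reads of such partners cannot be told apart with certainty. The same holds for Gm10125 at Zeb1 (0.08 to 0.22 TPM in lung TB, 1.49 to 1.91 TPM in lung CON).

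The Zeb messages are the classical targets of the miR-200 family, small RNAs of epithelial cells whose own genes are repressed by the Zeb proteins. The family's mature sequences are shown because their seeds, bases 2 to 8 in capitals, set which messages they pair with, and these fall into 2 classes (RefSeq, GRCm38.p6).
mmu-miR-141-3p: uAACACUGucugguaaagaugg
mmu-miR-200a-3p: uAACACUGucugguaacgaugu
mmu-miR-200b-3p: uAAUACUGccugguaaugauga
mmu-miR-200c-3p: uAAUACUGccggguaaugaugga
mmu-miR-429-3p: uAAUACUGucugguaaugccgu
The sites in Zeb2 that match the second seed, CAGTATT in capitals, are shown with the bases around them, read from the GENCODE M21 transcript with the longest 3' untranslated region, on the minus strand of chromosome 2 in GRCm38.
chr2:44988168-44988191: ctaccatacatCAGTATTttatta
chr2:44988103-44988126: ctacagtgcatCAGTATTacgatt
chr2:44987741-44987764: agcacccgtgtCAGTATTagacga
chr2:44987656-44987679: attaattttgtCAGTATTacacca
chr2:44987522-44987545: actgtagtgtaCAGTATTatagtt
Zeb1 and Zeb2 each held 5 such matches and 4 matches to CAGTGTT, the site of the other seed. Of 21020 genes with a 3' untranslated region, 13.3% held at least 1 CAGTATT and 0.44% held 3 or more. For CAGTGTT these shares were 17.2% and 0.88%. The region has 2401 bases in Zeb1 and 4941 bases in Zeb2, and the shares make no allowance for length. Among the other 8 genes, Snai1 and Snai2 held 1 CAGTATT each, and Snai2 and Grhl2 held 1 CAGTGTT each. The hairpin genes of all 5 miRNAs were listed at 0 in all 14 libraries, so these data hold no measurement of the miRNAs themselves, and a match is not evidence of a working site.

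Snai1 and Snai2 encode the zinc-finger repressors Snail and Slug. Snai1 had 5.28, 4.93, 6.03, 3.69 and 6.49 TPM in lung TB, against 19.63, 13.95 and 13.20 TPM in lung CON. The TB libraries lay close together and all under the CON libraries. Snai1 fell 2.15-fold (log2 fold change -1.11, SE 0.24, adjusted p = 0.00365, edgeR). Snai2 had 1.73, 1.2, 6.49, 0.51 and 3.05 TPM in lung TB, against 7.14, 5.73 and 5.84 TPM in lung CON. TB 3 lay within the CON range and the other 4 TB libraries lay under it. The change of Snai2 did not pass the test (log2 fold change -0.84, SE 0.65, adjusted p = 0.289, edgeR), and without TB 3 it did (-1.45, adjusted p = 0.0472).

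Twist1 and Twist2 are basic helix-loop-helix factors of mesoderm and connective tissue, and they moved in opposite directions. Twist1 had 0.56, 2.42, 0.19, 0.35 and 0.44 TPM in lung TB, against 0.17, 0.17 and 0.11 TPM in lung CON. These levels rest on 45, 165, 14, 23 and 26 counts in TB and on 10, 10 and 6 counts in CON, and TB 2 stood far above the rest. Twist1 rose 7.20-fold (log2 fold change 2.85, SE 0.90, adjusted p = 0.0223, edgeR), and without TB 2 the log2 fold change was 1.83 (adjusted p = 0.0105). Twist2 had 0.02, 0.80, 0.03, 0.09 and 0.08 TPM in lung TB, against 1.56, 1.6 and 2.0 TPM in lung CON. TB 2 was again the highest TB library, yet under every CON library. Twist2 fell 5.86-fold (log2 fold change -2.55, SE 0.97, adjusted p = 0.0464, edgeR), and without TB 2 the log2 fold change was -4.30 (adjusted p = 0.000353). Twist1 made up 75.2% to 96.6% of the summed Twist TPM in lung TB and 5.21% to 9.83% in lung CON. TB 2 also had the highest summed fibroblast markers of the TB libraries, 100.01 TPM, where the others had 23.9 to 39.8 TPM, and the part of fibroblasts in its Twist levels was not tested. With a single CON library left out the adjusted p of Twist1 was 0.0655 to 0.0812 and that of Twist2 0.0890 to 0.113, and for Twist2 it was also 0.0632 without TB 1, 0.0725 without TB 3, 0.0906 without TB 4 and 0.0868 without TB 5. On log2(TPM + 1) Twist1 did not pass (0.52, adjusted p = 0.166, limma).

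Vim encodes vimentin, the main intermediate filament of mesenchymal cells. It had 928.60, 842.45, 1993.91, 343.50 and 2406.50 TPM in lung TB, against 541.40, 548.09 and 569.26 TPM in lung CON. Of the TB libraries, 4 lay above all CON libraries and TB 4 lay under them. Vim rose 3.14-fold (log2 fold change 1.65, SE 0.60, adjusted p = 0.0400, edgeR). The call was lost in 5 of the 8 fits with a library left out, where the adjusted p was 0.102 to 0.106 without a CON library, 0.0722 without TB 3 and 0.0654 without TB 5. On log2(TPM + 1) the change was 0.93 (adjusted p = 0.187, limma). Markers of cells that express Vim in normal lung were mostly lower beside it, and their part in the Vim levels was not tested: fibroblast and leukocyte markers as given above, endothelial markers with 6 of 6 called lower, and pericyte and smooth muscle markers at 10.7 to 19.5 TPM in TB and 75.8 to 104 TPM in CON, with 3 of 5 called lower and 1 higher.

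Cdh1 had 193.71, 186.42, 256.57, 218.41 and 253.97 TPM in lung TB, against 148.32, 147.45 and 142.12 TPM in lung CON. Every TB library lay above every CON library. Cdh1 rose 2.07-fold (log2 fold change 1.05, SE 0.19, adjusted p = 0.00118, edgeR), and with the spread estimated over all 14 libraries it did not pass (0.98, adjusted p = 0.0811). Markers of the epithelia of normal lung did not rise with it. The airway list summed to 32.9 to 3923 TPM in TB and 106647 to 121887 TPM in CON, and all of its 4 genes, all 6 of alveolar type 2 and all 5 of alveolar type 1 cells were called lower. Cdh2 had 0.49, 0.68, 0.73, 0.27 and 0.72 TPM in lung TB, against 2.54, 3.12 and 3.29 TPM in lung CON. Cdh2 RNA was thus scarce in both groups, and all TB libraries lay under the CON libraries. Cdh2 fell 3.74-fold (log2 fold change -1.90, SE 0.36, adjusted p = 0.00169, edgeR). The ratio of Cdh1 to Cdh2 TPM was 274 to 809 in lung TB and 43.2 to 58.4 in lung CON. Cdh2 is also a gene of heart muscle, of whose 5 markers 3 were called lower, with a median log2 fold change of -4.64. Their summed level, 106 to 460 TPM in TB and 308 to 1061 TPM in CON, was carried in TB by Tnnt2 (105 to 385 TPM in TB, 70.5 to 186 TPM in CON, not called), while Myh6, Myl7 and Nppa were at 0 in 1 or 2 TB libraries. The part of heart tissue in the fall of Cdh2 was not tested.

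Grhl2, a grainyhead-like activator of epithelial genes, had 6.90, 10.55, 0.52, 18.12 and 1.16 TPM in lung TB, against 9.20, 8.96 and 9.42 TPM in lung CON. The TB libraries lay on both sides of the CON libraries, TB 3 and TB 5 far under them and TB 4 far above. No change of the mean passed the test (log2 fold change 0.14, SE 0.92, adjusted p = 0.904, edgeR). Its overlapping antisense gene Gm16136 had 1.01 to 27.75 TPM in TB and 6.13 to 6.65 TPM in CON.

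**Figure D2:**
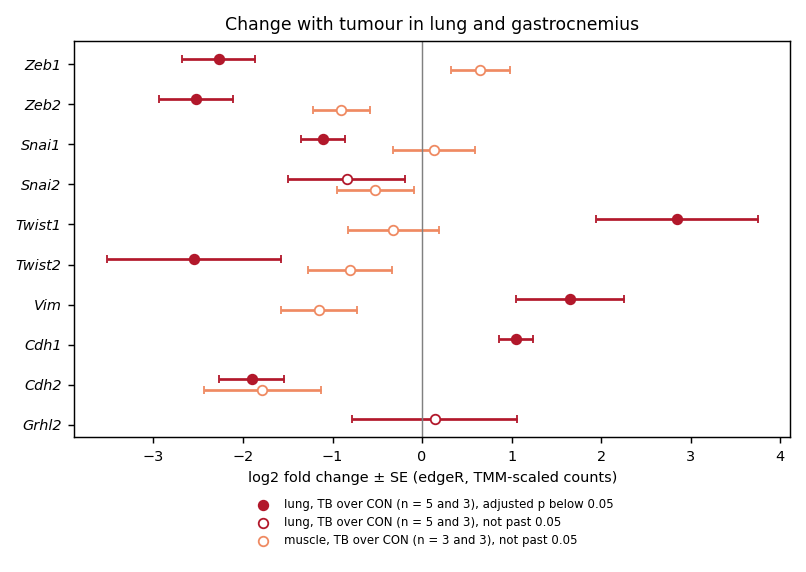
Log2 fold change of TB over CON with its SE (horizontal axis) for each gene (rows), in lung (5 against 3 libraries) and in muscle (3 against 3), from edgeR on TMM-scaled counts; filled points passed an adjusted p of 0.05. In lung 8 genes passed, from -2.55 for Twist2 to 2.85 for Twist1, in muscle none did, and Cdh1 and Grhl2 had too few muscle counts to be tested.

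The TB lung libraries differed among themselves more for some of these genes than for others. The SD of log2 CPM (counts relative to library size, TMM-scaled) over the 5 TB libraries was 2.19 for Grhl2, 1.45 for Twist2, 1.34 for Snai2, 1.29 for Twist1 and 1.19 for Vim. The median SD of all genes tested was 0.47 in TB and 0.10 in CON, and 1.45% of genes had a larger TB SD than Grhl2. Cdh1 and Snai1 were the steadiest, with an SD of 0.24 and 0.32. By library, TB 3 and TB 5 had the lowest Grhl2, 3.90 and 2.40 log2 units under the CON mean, and the highest Vim, 2.16 and 2.58 units above it. TB 4 stood at the other end, with the highest Grhl2, 1.36 units above the CON mean, and the lowest Zeb1, Zeb2, Snai1, Snai2, Vim and Cdh2. Cdh1 was above the CON mean in each of them, by 1.13 in TB 3, 1.28 in TB 5 and 0.98 in TB 4. The ratio of Cdh1 to Grhl2 TPM accordingly ran from 12.1 to 493 in TB and from 15.1 to 16.5 in CON. These libraries were picked out after their values were seen, so the pattern is a description of 5 libraries without a test.

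**Figure D3:**
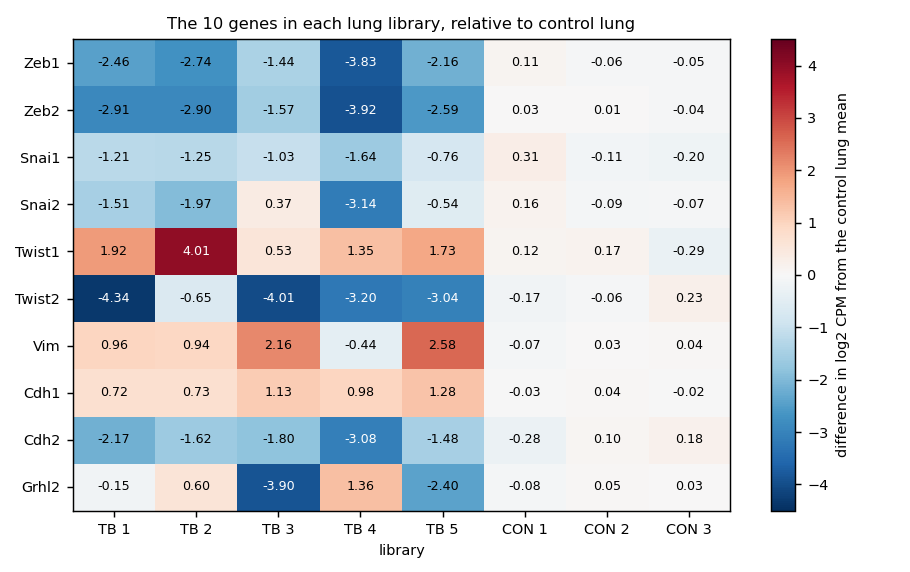
Difference in log2 CPM from the mean of the 3 control lung libraries (colour and printed value) for each of the 10 genes (rows) in each of the 8 lung libraries (columns). TB 3 and TB 5 combine low Grhl2 (-3.90 and -2.40) with high Vim (2.16 and 2.58), TB 4 shows the reverse (1.36 and -0.44), and Cdh1 is above the CON mean in all 5 TB libraries.

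Genes that share the work of these regulators were taken by list, and of each list the 2 genes with the smallest p are named. Counts of these lists in lung stand against 30.4% of all genes called higher and 29.3% called lower. Of 13 other keepers of the epithelial state, 4 rose, 2 fell and 7 did not pass in lung TB, with a median log2 fold change of 0.46 against 0.07 for all genes tested. Grhl1, a relative of Grhl2, fell (0.30 to 1.54 TPM in TB, 8.38 to 9.20 TPM in CON, log2 fold change -2.88), and Rbm47, an RNA-binding protein gene of epithelia, rose (9.41 to 27.06 TPM in TB, 10.30 to 11.72 TPM in CON, log2 fold change 1.36). Named after their values were seen, Rab25, a vesicle GTPase of epithelia, and Esrp1, an epithelial splicing factor, also varied widely over the TB libraries. Rab25 had 45.05, 94.99, 4.32, 144.20 and 7.44 TPM in lung TB, against 35.52, 30.13 and 29.82 TPM in lung CON. Esrp1 had 15.12, 33.01, 4.49, 40.14 and 24.38 TPM in lung TB, against 12.76, 11.79 and 11.87 TPM in lung CON. Both were, like Grhl2, lowest in TB 3 and highest in TB 4, while TB 5 was low for Rab25 and not for Esrp1.

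Of 21 epithelial surface and junction genes, 12 rose, 1 fell and 8 did not pass in lung TB, with a median of 1.34. Krt18 and Krt8, the keratin pair of simple epithelia, led them. Krt18 had 3908 to 6348 TPM in TB and 239 to 255 TPM in CON (27.0-fold higher, adjusted p = 5.98e-06, edgeR), and Krt8 had 1849 to 3339 TPM in TB and 208 to 217 TPM in CON (15.5-fold higher, adjusted p = 1.90e-05, edgeR). Of 10 cadherin partners at adherens junctions, none rose, 4 fell and 6 did not pass. The adhesion genes Nectin3 (1.62 to 5.46 TPM in TB, 44.39 to 51.05 TPM in CON) and Nectin1 (1.46 to 4.24 TPM in TB, 10.72 to 12.95 TPM in CON) fell with log2 fold changes of -3.94 and -1.67. Of 11 other cadherins, 2 rose, 5 fell and 4 did not pass. Cdh17, the liver-intestine cadherin, had 69.96 to 137.42 TPM in TB and 0.09 to 0.17 TPM in CON (log2 fold change 10.06), and Cdh5, the cadherin of endothelium, had 9.02 to 13.85 TPM in TB and 292 to 348 TPM in CON (log2 fold change -4.28).

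Of 18 other EMT transcription factors and cofactors, 8 rose, 5 fell and 5 did not pass in lung TB, with a median of 0.27. Hmga2, a chromatin protein of embryonic and tumour cells, had 59.36, 112.62, 193.43, 55.29 and 172.55 TPM in lung TB, against 0.05, 0.08 and 0.12 TPM in lung CON. Sox9, a factor of progenitor cells in the lung epithelium, had 29.19, 13.88, 14.09, 10.79 and 27.13 TPM in lung TB, against 0.21, 0.30 and 0.30 TPM in lung CON. Both rose (log2 fold changes 10.88 and 6.59, adjusted p = 7.84e-06 and 1.28e-05, edgeR), and the groups lay far apart. Of 24 mesenchymal products, 6 rose, 5 fell and 13 did not pass, with a median of 0.27. The matrix protease Mmp2 (log2 fold change -2.21) and the receptor Pdgfrb (-1.41) fell, with 7.35 to 17.73 TPM and 6.48 to 12.08 TPM in TB against 46.83 to 52.52 TPM and 28.28 to 31.11 TPM in CON. Of 4 other intermediate filament genes tested, 1 rose and 3 fell, among them desmin (Des, -3.15) and synemin (Synm, -4.99), filament genes of muscle cells. Of 9 genes of TGF-beta signalling, the best-known inducer of EMT, 3 rose and 4 fell. The receptor Tgfbr2 had 11.10 to 16.91 TPM in TB and 73.88 to 79.11 TPM in CON (log2 fold change -1.69), while the signal carrier Smad3 rose (30.35 to 39.83 TPM in TB, 18.30 to 19.03 TPM in CON, 1.33). Of 7 genes for the turnover of Snail and Twist proteins, 1 fell and 6 did not pass, and the member that fell was Btrc, an F-box gene that marks Snail for degradation (-0.53). The kinase gene Gsk3b, next by p, did not pass (-0.33, adjusted p = 0.0520, edgeR). These lists bring together genes of many cell types, and the part of cell makeup in their changes was not tested.

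**Figure D4:**
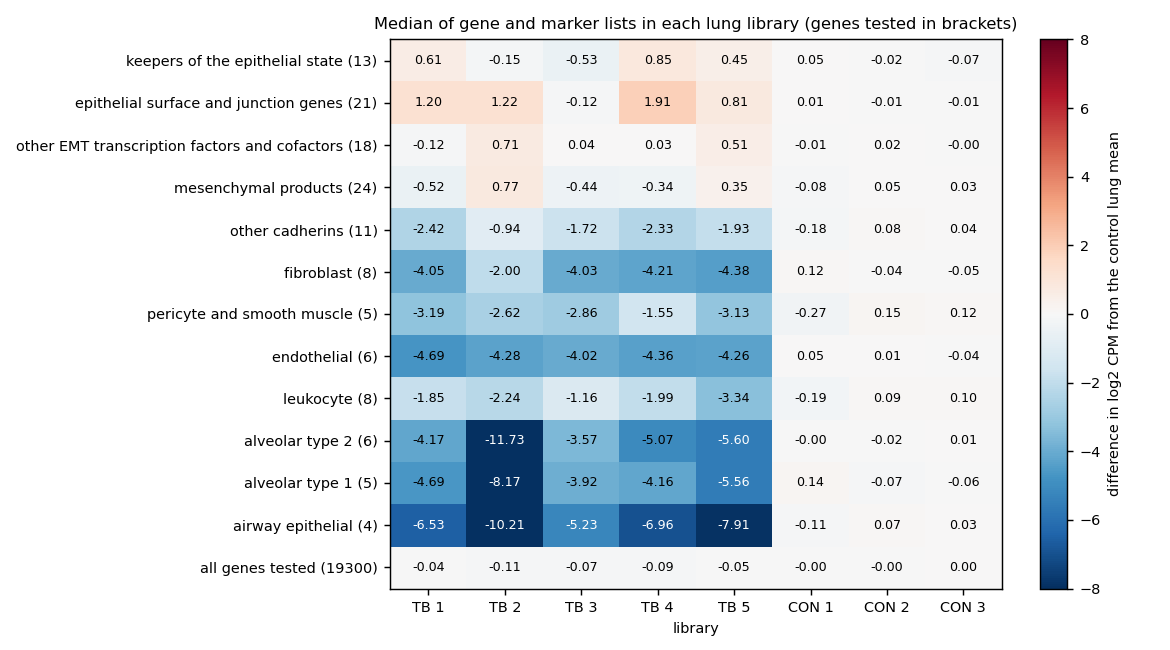
Median difference in log2 CPM from the control lung mean (colour and printed value) over the tested genes of each pathway or marker list (rows, number of genes in brackets), in each of the 8 lung libraries (columns). Epithelial surface and junction genes have positive medians in 4 of the 5 TB libraries (0.81 to 1.91) and -0.12 in TB 3, while the marker lists of fibroblasts, endothelium, leukocytes and lung epithelia are negative in all 5.

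In muscle the epithelial genes Cdh1 and Grhl2 were close to absent, and none of the 8 genes that could be tested was called by edgeR, against 15.3% of the 14373 genes tested (8.53% higher, 6.75% lower). Unadjusted p in edgeR was below 0.05 for 3 of them, Zeb2, Vim and Cdh2, all lower in TB. That stands against 5126 of the 14373 genes tested, in either direction. DESeq2 called 2 of these 3 genes, Vim (adjusted p = 0.0452) and Cdh2 (adjusted p = 0.0307). The TPM ranges of TB and CON did not overlap for 4 of the 8, against 25.5% of all genes tested, and these 4 were Zeb2, Twist2, Vim and Cdh2. Cdh1 had 5, 10 and 4 counts in muscle TB and 3, 11 and 33 counts in muscle CON. Grhl2 had 1, 0 and 2 counts in muscle TB and was listed at 0 in muscle CON, where the floor of 3 counts equals 0.0821 to 0.0924 CPM (counts scaled to library size). Both were left out by the filter on low counts.

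Vim had 19.12, 23.95 and 24.54 TPM in muscle TB, against 41.42, 43.07 and 51.81 TPM in muscle CON. The groups did not overlap, and the change did not pass the test (log2 fold change -1.15, SE 0.42, adjusted p = 0.0908, edgeR). Cdh2, which also serves contacts of muscle and nerve cells, had 0.12, 0.07 and 0.14 TPM in muscle TB, against 0.23, 0.25 and 0.53 TPM in muscle CON (log2 fold change -1.79, SE 0.65, adjusted p = 0.0879, edgeR). Its levels rest on 16 to 33 counts in TB and 49 to 127 counts in CON. Schwann cell markers summed to 12.5 to 27.4 TPM in muscle TB and 14.5 to 63.8 TPM in muscle CON, and their part in the Cdh2 levels was not tested. Twist2 had 0.60, 0.52 and 0.58 TPM in muscle TB, against 0.81, 0.87 and 0.97 TPM in muscle CON, without overlap in TPM (log2 fold change -0.81, SE 0.47, adjusted p = 0.240, edgeR). On TMM-scaled counts the groups did overlap for Twist2 (1.18 to 2.11 CPM in TB, 1.77 to 3.91 CPM in CON). They also overlapped for Cdh2 (0.77 to 2.18 CPM in TB, 2.01 to 8.71 CPM in CON). For Vim the groups nearly touched on that scale (64.8 to 155.4 CPM in TB, 155.9 to 366.6 CPM in CON).

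Neither Zeb gene passed the test in muscle. Zeb1 had 15.25, 5.27 and 5.69 TPM in muscle TB, against 6.11, 4.34 and 3.93 TPM in muscle CON. In TPM, TB 1 stood above all others and the remaining TB libraries lay within the CON range. On TMM-scaled counts TB 1 and TB 3 (141.7 and 101.5 CPM) lay above the CON libraries (64.7 to 77.6 CPM). TB 2 (66.6 CPM) lay within the CON range on that scale. The log2 fold change of Zeb1 was 0.65 (SE 0.33, adjusted p = 0.184, edgeR), and 0.93 without TB 2 (adjusted p = 0.0349, edgeR). Zeb2 had 2.76, 3.73 and 1.56 TPM in muscle TB, against 7.62, 5.20 and 4.42 TPM in muscle CON. All TB libraries lay under the CON libraries (log2 fold change -0.90, SE 0.32, adjusted p = 0.0830, edgeR, and -1.17, adjusted p = 0.0398, without TB 1). Zeb1 supplied 58.6% to 84.7% of the summed Zeb TPM in muscle TB and 44.5% to 47.1% in muscle CON. For Zeb2 the deposited gene length, which weights transcripts by their abundance, was 5047 bases in muscle TB 1 and 2234 to 2646 bases in the other 5 muscle libraries. The transcripts to which its reads were assigned thus differed in TB 1. The Zeb1 share of 84.7% belongs to TB 1 and depends on this assignment, while TB 2 and TB 3 had 58.6% and 78.5%. Snai1 (0.59 to 1.17 TPM in TB, 0.47 to 0.74 TPM in CON), Snai2 (0.19 to 0.35 TPM in TB, 0.32 to 0.36 TPM in CON) and Twist1 (0.53 to 0.91 TPM in TB, 0.78 to 0.86 TPM in CON) overlapped between the groups.

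Of the 24 mesenchymal products, 1 rose, 9 fell and 14 did not pass in muscle TB, against 8.53% of all genes called higher and 6.75% called lower, shares that rest on 2196 calls and varied from 106 to 4513 calls with a library left out. The list had a median log2 fold change of -0.76 against -0.03 for all genes tested. Col1a1, a chain of fibrillar collagen, had 0.50 to 1.09 TPM in muscle TB and 18.57 to 27.76 TPM in muscle CON (34.9-fold lower, adjusted p = 0.00496, edgeR). Thy1, a surface glycoprotein of fibroblasts and nerve, had 2.06 to 3.74 TPM in TB and 24.97 to 28.44 TPM in CON (8.94-fold lower, adjusted p = 0.00496, edgeR). Of the 8 fibroblast markers 5 were called lower, with a median log2 fold change of -2.12. Their summed level, 198 to 335 TPM in TB and 290 to 337 TPM in CON, was carried by Dcn (171 to 320 TPM in TB, 211 to 235 TPM in CON, not called), while Pi16 had 0.29 to 0.94 TPM in TB and 7.12 to 11.88 TPM in CON. The part of fibroblasts in these falls was not tested. Cdh15, the cadherin of muscle precursor cells, rose (9.45 to 15.78 TPM in TB, 1.91 to 4.33 TPM in CON, log2 fold change 1.88, adjusted p = 0.00774, edgeR) and was the only call among 6 other cadherins tested. Des rose (1513 to 2562 TPM in TB, 530 to 1003 TPM in CON, log2 fold change 1.23). Of the cadherin partners 2 of 9 were called, Nectin1 (-1.49) and Afdn (-1.06), which links nectins to actin, and both fell. Of 15 other EMT factors 1 fell, the E-protein gene Tcf4 (-1.35), and of 6 turnover genes 1 rose, the kinase gene Gsk3b (1.28). None of 7 keepers of the epithelial state, 6 epithelial surface genes or 9 TGF-beta genes passed the test in edgeR. Their smallest p-values belonged to Klf4 (log2 fold change -1.08, adjusted p = 0.0957) and Tfcp2l1 (0.88, 0.115), to Lsr (1.25, 0.146) and Krt18 (0.80, 0.235), and to Smad4 (1.27, 0.0612) and Tgfbr2 (0.72, 0.205). Sox4 (2.40, adjusted p = 0.0610), Cdh13 (-0.66, 0.125), Nes (-0.83, 0.115) and Fbxl5 (-0.64, 0.118), the second by p in their lists, did not pass either.

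Whether the effect of tumour differed between tissues was tested in a fit of all 14 libraries, as the log2 fold change in lung minus that in muscle. The difference passed for 5 of the 10 genes, 3 positive and 2 negative, against 35.6% of the 19834 genes tested (16.6% positive and 19% negative). Zeb1 (-2.91, SE 0.57, adjusted p = 0.00142) and Zeb2 (-1.63, SE 0.58, adjusted p = 0.0389) had negative differences. Both fell in lung, and neither passed the test in muscle, where Zeb1 had a log2 fold change of 0.65 and Zeb2 of -0.90. Vim (2.79, SE 0.80, adjusted p = 0.0141) had a log2 fold change of 1.65 in lung and of -1.15 in muscle. The muscle change did not pass (adjusted p = 0.0908, edgeR), and the lung call was lost in 5 of 8 fits with a library left out. The difference for Vim passed in each fit with 1 library left out. Twist1 (3.16, SE 1.09, adjusted p = 0.0349) passed, with a difference of 2.13 (adjusted p = 0.0350) without lung TB 2, and it did not pass without muscle CON 3 (2.88, adjusted p = 0.0786), on log2(TPM + 1) (0.64, adjusted p = 0.186, limma) or on log2(TPM + 0.1) (1.64, adjusted p = 0.0953, limma). Cdh1 (2.60, SE 0.84, adjusted p = 0.0258) passed on a handful of muscle counts, and without muscle CON 3, which holds 33 of them, the difference was 1.17 (adjusted p = 0.200). On log2(TPM + 1) it was 0.61 (adjusted p = 0.0480, limma) and on log2(TPM + 0.1) 0.71 (adjusted p = 0.156, limma). Of the 14 fits with a library left out, the call was lost in 11 for Zeb2 (adjusted p up to 0.111), in 7 for Twist1 (up to 0.0840) and in 5 for Cdh1 (up to 0.200), and in none for Zeb1. Snai1 (-1.24, adjusted p = 0.0613), Twist2 (-1.75, adjusted p = 0.286), Snai2 (-0.32, adjusted p = 0.839) and Cdh2 (-0.12, adjusted p = 0.958) did not pass. Nor did Grhl2, for which no difference is given because its control muscle libraries are all at 0.

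In the control tissues the order of levels set lung and muscle apart. In lung CON, Vim (553 ± 14.5 TPM, SD, n = 3) stood first and Cdh1 (146 ± 3.36 TPM) next, followed by Zeb1 and Zeb2, whose ranges overlapped, then Snai1, Grhl2, Snai2, Cdh2, Twist2 and Twist1 (0.15 ± 0.035 TPM), each apart from the next. In muscle CON, Vim (45.4 ± 5.58 TPM, SD, n = 3) stood first, Zeb2 and Zeb1 followed with overlapping ranges, Twist2 and Twist1 also overlapped, and Cdh1 and Grhl2 came last. In lung TB the ranges of neighbours from Grhl2, the third, down to Twist2, the last, overlapped. By TPM, 9 of the 10 genes were higher in control lung than in control muscle and Twist1 was lower, and the ranges of all 10 did not overlap, as for 88% of all genes tested. On TMM-scaled counts 6 of the 10 were called, 5 higher and 1 lower in lung, against 62.5% of all genes tested (37.9% higher, 24.6% lower): Cdh1 (8.23), Grhl2, Snai1 (2.08), Snai2 (1.62) and Zeb2 (1.26) higher, Twist1 (-5.04) lower. These sizes depended on the scale: on log2(TPM + 1) Twist1 had -0.67, Snai1 3.36, Snai2 2.43, Zeb2 2.31 and Cdh1 7.10, and on log2(TPM + 0.1) Twist1 had -1.89, Snai1 4.48, Snai2 3.84, Zeb2 2.49 and Cdh1 9.79, all past the threshold in limma. For Cdh1 the value was 9.67 without muscle CON 3 and 7.64 without muscle CON 1. With a library left out, Snai2 lost its call in 11 of 14 fits (adjusted p up to 0.146) and Zeb2 in 2 of 14, without muscle CON 1 and without muscle CON 2 (up to 0.0657). No fold is given for Grhl2, whose control muscle libraries are all at 0. For Zeb1 the difference depended on the scale, at -0.0019 on TMM-scaled counts (adjusted p = 1, edgeR) and 2.64 on log2(TPM + 1) (adjusted p = 3.74e-05, limma), where the median gene stood at 0.51 and 1.47. Twist2 likewise had -1.64 on counts and 0.53 on log2(TPM + 1), so neither has a settled direction between the tissues. Vim and Cdh2, not called on counts (0.92 and 0.35), were called on log2(TPM + 1) at 3.58 and 1.58.

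Across the 14 libraries, the genes whose profiles lay closest to each member were sought among 13417 candidates by the root mean square difference of centred log2 CPM, where smaller is closer. For Zeb1 these were Fermt2 (0.46) and Ttc28 (0.50), with a median over all candidates of 1.73. Gulp1 (0.37) and Fyn (0.37) lay closest to Zeb2, and Ifnar2 (0.27) and Ddhd1 (0.30) to Snai1. Plscr4 (0.41) and Gnb4 (0.44) lay closest to Snai2, Fap (0.68) and Pdlim7 (0.69) to Twist1, and Pcdh19 (0.43) and Cntfr (0.47) to Twist2. Syn1 (0.35) and Apcdd1 (0.43) lay closest to Vim, Olfml3 (0.45) and Pde3b (0.48) to Cdh2, Cldn7 (0.80) and Foxa1 (0.93) to Cdh1, and Rab25 (0.65) and Tspan1 (0.67) to Grhl2. The libraries share tissue, treatment and preparation, so likeness here describes these profiles.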

How the data were processed

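The authors deposited a table for each library with expected counts, TPM and FPKM (not used). Per the submitters' processing notes, reads were processed with Trim Galore, STAR 2.7.9a and RSEM 1.3.3. The sources used here give no settings, strand option or genome build. Per the labels, the kit was MGIEasy RNA Directional and reads had 100 bases. Expected counts, estimates that need not be whole, were rounded. Deposited TPM served for levels and for 2 alternatives, as log2 values with pseudocounts of 1 and 0.1 that were computed here.

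Symbols matched 52083 of 55416 identifiers. Each tissue was fitted in R 4.3.3 with edgeR 4.0.16 (TMM, filterByExpr, glmQLFit, two-sided glmQLFTest, Benjamini-Hochberg over all genes tested). SE is the absolute log2 fold change divided by the square root of F. A fit of all 14 libraries gave the tissue contrasts. The code was tested on simulated data. Alternatives used DESeq2 1.42.0, limma 3.58.1, other scalings and filters, a replicate block and each library left out. Depth allows a floor of 3 counts, or 0.0491 to 0.0924 CPM, which covers counting error only. Replicates differed beyond sampling noise in all 19 pairs.

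The 10 genes, the 9 pathway lists and the 12 marker lists were chosen with earlier results of these data known. Besides the 10 genes, the text names the 2 genes with the smallest p of each pathway list and tissue and the 2 closest profiles per gene. Rab25 and Esrp1 levels, single marker genes and overlapping antisense genes were named after their values were seen. Sequences come from RefSeq (GRCm38.p6) and GENCODE M21.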

Additional observations from a re-analysis of the deposited data

Results flagged for a closer look

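In lung TB, 1 library stood apart in TPM for both Twist genes by Dixon's test, at its 95% critical value of 0.71 for 5 libraries. Twist1 was 2.42 TPM in TB 2, where the next highest TB library had 0.56 TPM. Twist2 was 0.80 TPM in TB 2, where the next highest had 0.09 TPM. The test was run on 10 genes and on TPM only, and chance alone gives such a gap in about 1 of 20 groups of normally distributed values. In log2 CPM, where it was not run, Twist1 was 1.06 in TB 2 and -2.41 to -1.02 in the other TB libraries. Twist2 was -0.78 in TB 2 and -4.47 to -3.17 in the others, so the flag may depend on the scale. The same library had the highest summed fibroblast markers of lung TB, 100.01 TPM, and their part in the Twist levels was not tested.

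The effect of tumour differed between lung and muscle, by a test of the difference itself, for Zeb1 (-2.91), Zeb2 (-1.63), Twist1 (3.16), Vim (2.79) and Cdh1 (2.60), each as the log2 fold change in lung minus that in muscle. With a library left out, the call was lost in 11 of 14 fits for Zeb2, 7 for Twist1 and 5 for Cdh1, and in none for Zeb1 and Vim. The Cdh1 value rests on 3 to 33 counts in any muscle library, and without muscle CON 3 it was 1.17 (adjusted p = 0.200). On log2(TPM + 1) Twist1 had 0.64 (adjusted p = 0.186, limma).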

How the results depend on the processing

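In lung, 6 to 8 of the 10 genes were called under other scalings, filters and tests, and 5 to 8 with each library left out, against 9171 to 12367 and 9405 to 11674 of all genes (11513 as reported). Zeb1, Zeb2, Snai1 and Cdh2 kept their call in all of these, Cdh1 in all but the fit of all 14 libraries. In muscle, upper-quartile scaling called 1 gene (Zeb2), DESeq2 and no filter 2 each (Vim, Cdh2), the fit of all 14 libraries 1 (Cdh2), and fits with a library left out 0 or 1. Over all genes in muscle, 2196 calls became 3657 with DESeq2, 4031 with no filter, 3459 in the fit of all 14 libraries, 415 on log2(TPM + 1), 676 on log2(TPM + 0.1) and 106 to 4513 with a library left out. The tissue difference passed for 2 to 5 genes with a library left out, and between control tissues 10 genes were called on log2(TPM + 1). There Zeb1 changed sign, with 2.64 on log2(TPM + 1) and 2.86 on log2(TPM + 0.1), as did Twist2 with 0.53 on log2(TPM + 1). Scaling moved the median gene in lung to -0.23 on log2(TPM + 1) and -0.39 on log2(TPM + 0.1) (0.07 on TMM), with 3594 genes higher and 7994 lower on the first against 5862 and 5651, and in muscle to -0.25 with upper-quartile scaling (760 higher and 1079 lower against 1226 and 970). Direction held for the 8 lung calls on every scale. Deviations of same-numbered TB and CON libraries had an r of 0.039, 0.063 and 0.00012 in lung and of 0.35, -0.047 and 0.35 in muscle, where numbers 1 and 3 deviated together and 2 did not. Not every pair was above 0.1 and not every library correlated best with its own number, so the libraries were not treated as paired. With the replicate block 7 genes were called in lung (Twist2 lost, adjusted p = 0.0648), and in muscle 2 genes and 3303 of all genes. The causes of these changes were not tested. Depth limits Twist1 in control lung, Cdh2 in muscle, and Cdh1 and Grhl2 in muscle, which rest on few counts.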
